A study of Mus musculus with 13 samples.

Results

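The 5 second-generation libraries of 0.5 Gy form 1 ordered series of mouse oocyte RNA, with 1 library each at 0 h, 1 h, 2.5 h, 4 h and 6 h. They were chosen by their labels, which give the dose, the time and the generation, and they are 5 of the 13 libraries of the study. The other libraries were 3 of the first generation, from 0, 1 and 4 h of a series with the same dose, and 5 of the third generation, from a series with 0.2 Gy. Ovaries of female CD-1 mice at postnatal day 5 (P5) were cultured overnight and irradiated with γ rays from a caesium source. Oocytes were then freed with trypsin and separated from follicular cells by repeated centrifugation, with 4 ovaries for each time point. All libraries came from the CD-1 strain. The paper describes 0 h as the state before irradiation, and the unirradiated 0 h library was the reference of the series. What set the generations apart (litter, day or sequencing run) is not stated. A time point had a single library, so the spread of every test below is that of the libraries around a fitted curve over time and not that of replicate cultures. The first-generation libraries served only as a check.

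Resting oocytes hold TAp63α, a transcription factor of the p53 family that is kept as an inactive dimer and becomes an active tetramer after DNA damage. It binds response elements like those of p53, and its targets include BH3-only proteins that set off apoptosis, the inhibitor of cyclin-dependent kinases *Cdkn1a* and the ubiquitin ligase *Mdm2*. Interferon-stimulated genes form another program. Their transcription follows factors such as STAT2 and IRF9, which act at the interferon-stimulated response element (ISRE), and their products act against viruses and on nucleic acid sensing.

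The libraries held between 15709549 and 28169108 estimated reads, and that of 0 h was the smallest. Mitochondrial genes took from 2.86% of the reads at 2.5 h to 7.28% at 0 h. Values are given as CPM, the counts scaled to library size after normalization with TMM within the 5 libraries, and the first-generation values were normalized among their own 3 libraries. The 36 oocyte genes examined, among them *Dazl*, *Nlrp5* and *Sycp3*, summed to 11300 to 12590 CPM and none was at 0 in any library. Markers of granulosa cells (2722 to 3558 CPM over 16 genes), of stroma and theca (3005 to 4251 CPM over 16 genes) and of red blood cells were present as well. In bulk RNA, a change in the share of a cell type and a change in its RNA per cell cannot be told apart.

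The 0 h library stood apart in granulocyte transcripts. The 10 granulocyte markers summed to 470.6 CPM at 0 h and to 13.8, 9.67, 12.2 and 7.75 CPM at 1, 2.5, 4 and 6 h. In the first-generation libraries the sum was 8.08 CPM at 0 h, 16.7 CPM at 1 h and 13.1 CPM at 4 h, so the second-generation 0 h library was alone at that level. *S100a8*, a calcium-binding protein of neutrophils, stood at 132 CPM at 0 h and at 2.04 to 3.53 CPM later. The antimicrobial peptide gene *Camp* stood at 30.6 CPM at 0 h and at 0.0368 to 2.04 CPM later. All 7 of these markers that passed the filter on low counts were highest at 0 h. The 0 h reads themselves count toward passing that filter, so this adds no support to the sums. Red blood cell markers summed to 6003 CPM at 4 h and to 2658 to 3169 CPM at the other times, and to 5794 CPM at 4 h in the first generation. The main counts of the p53 lists and of the profile shapes are therefore given also without it, below or in the closing section.

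**Figure D1:**
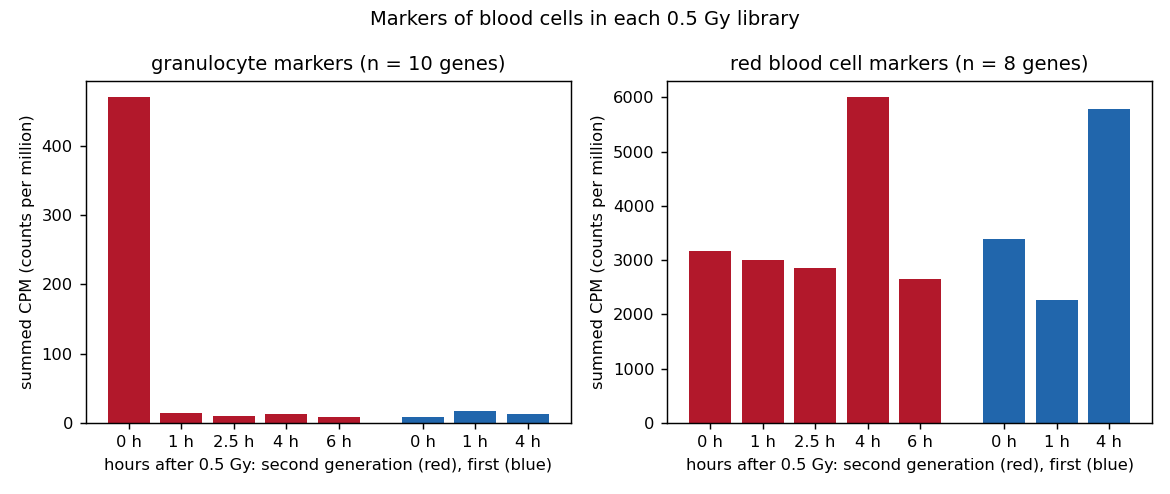
Summed CPM of the granulocyte markers (left) and red blood cell markers (right) in each library of 0.5 Gy, 1 bar per library, with the second generation in red and the first in blue. The second-generation 0 h bar reaches 470.6 CPM of granulocyte transcripts, while the other 7 bars lie at or below 16.7 CPM.

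To ask which genes followed time as a trend, a straight line over hours was fitted to each of 24085 genes, and its slope is given as the log2 change over 6 h. At an adjusted p under 0.05 and a change over 1, 4 genes were called (0.0166%), of which 1 rose and 3 fell. An unadjusted p under 0.05 was reached by 2278 genes (9.46%), 1064 of them upward (4.42%) and 1214 downward (5.04%). The gene that rose was *Slc6a8* (ENSMUSG00000019558, chromosome X, 73673150 to 73682502 of GRCm38), the transporter that brings creatine into cells. *Slc6a8* stood at 7.67, 13.4, 15.0, 37.7 and 69.5 CPM in time order. Each time point was higher than the one before it. The fitted change was 3.13 ± 0.34 (SE; adjusted p = 0.0485, edgeR), and from 0 to 6 h the level differed 9.06-fold. First-generation levels of *Slc6a8* were 13.2, 12.8 and 23.3 CPM at 0, 1 and 4 h. Among these times 4 h was the highest in both generations, by 1.77-fold over 0 h in the first. The call of *Slc6a8* was lost on leaving out any 1 of the 5 libraries (adjusted p from 0.0601 without 2.5 h to 0.674 without 0 h, edgeR), while the change over 6 h lay between 3.06 and 3.32 in these fits. It was also lost with limma (adjusted p = 0.117), with the replicate block over 8 libraries (adjusted p = 0.0626, edgeR), with the 1 and 4 h libraries exchanged between generations (adjusted p = 0.259, edgeR) and with time as log2 hours or as the order of the time points (adjusted p = 0.0771 and 0.0616, edgeR). Over all 8 libraries without the block *Slc6a8* was called, with a change of 2.635 (adjusted p = 0.0223, edgeR).

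The 3 genes that fell were *Gm20390*, *Ifit1bl2* and the processed pseudogene *Gm8258*, and none of them had a read at 4 or 6 h. They passed the filter on low counts only through the earlier libraries, where they were high. *Gm20390* stood at 14.9 CPM at 0 h and 1.38 CPM at 1 h and had no reads from 2.5 h on. Against a floor of 3 reads in the 6 h library, *Gm20390* was at least 134-fold lower at 6 h than at 0 h, *Gm8258* at least 75.0-fold and *Ifit1bl2* at least 47.8-fold. These bounds cover counting error only. The first generation did not go the same way for *Gm20390*, which stood at 2.52, 3.71 and 4.38 CPM at 0, 1 and 4 h. *Gm8258* had no read in the first-generation 0 h library and stood at 1.55 and 0.674 CPM at 1 and 4 h, and *Ifit1bl2* had reads at 1 h alone, with 1.93 CPM. Of the 30-base words in the transcripts of *Gm20390*, 97.5% also occur in transcripts of another gene, most often *Nme2*, and 72.5% of those of *Gm8258* occur in *Txlng*. Reads of 30 bases from such genes can be divided between the copies, so their levels are uncertain. Their high 0 h values lay in the library with the granulocyte transcripts, and the part of these in the falls was not tested.

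The 5 p53 lists leaned upward as a group. They hold feedback regulators, p53 target genes of arrest, of apoptosis and of metabolism and stress, and death receptor genes. The last list is named for the receptors and also holds the kinase *Ripk1*, so not every member need be a p53 target. Of the 76 genes of the 5 lists, 74 passed the filter. The median change over 6 h was 0.82 for these 74 and 0.01 for all genes tested. A change over 1 was reached by 33 of the 74 (44.6%), against 11.4% of all genes, and a change below -1 by 2, *Ccng2* and *Hrk*, against 9.79%. An unadjusted p under 0.05 with an upward slope was reached by 32 of the 74, against 4.42% of all genes, and with a downward slope by 2. None of the 74 was called by edgeR's quasi-likelihood test, where the lowest adjusted p was 0.13, while the Wald test of DESeq2 called 14 of them upward and none downward, against 177 of all genes upward (0.735%). Without the filter on low counts edgeR called *Mdm2* and *Eda2r* upward, among 14 upward and 20 downward calls over all genes. Over all 8 libraries of 0.5 Gy it called them with a replicate block for the generation, among 4 upward and 1 downward calls, and without the block, among 7 calls that were all upward and included *Zmat3*. Without the 0 h library the count with a change over 1 was 26 of 73 (35.6%), against 12.5% of all genes, with 3 of 8 feedback, 6 of 13 arrest, 5 of 19 apoptosis, 4 of 13 death receptor and 8 of 20 metabolism and stress genes. An upward unadjusted p under 0.05 was then reached by 13 of the 73 for the straight line, against 2.85% of all genes, by 18 for curvature, against 3.38%, and by 13 for the late step, against 3.11%.

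The first-generation libraries had not been used in this count. The lists themselves were chosen with earlier results of these data known, so this check is not independent of the choice of members. In the first generation, 31 of the 33 genes with a change over 1 were higher at 4 h than at 0 h, and 22 were higher by over 1 on the log2 scale, against 2347 of all 24085 genes. Red blood cell markers were also highest at 4 h in both generations, and their part in this was not tested. For all genes with a change over 1, this share was 56.5%. The 2 exceptions were *Zfp385a* and *Gls2*, both below 6 CPM in every second-generation library. Among the first-generation libraries, the median of 4 h minus 0 h was 1.36 for the 33 genes, 0.16 for the other 41 and -0.01 for all genes.

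**Figure D2:**
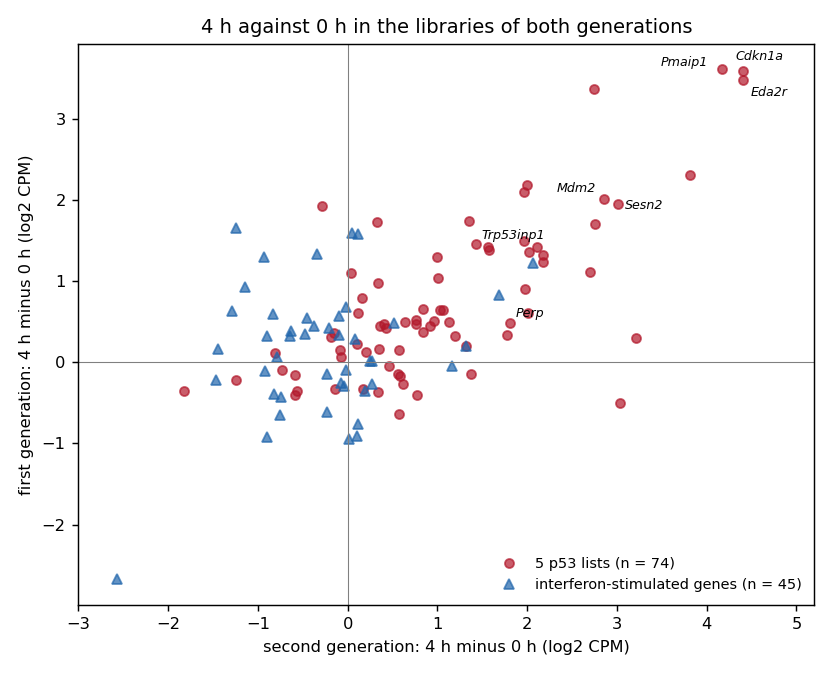
Difference between 4 h and 0 h in log2 CPM in the second generation (x axis) and in the first (y axis), with 1 point per gene, for the 74 genes of the p53 lists (red circles) and the 45 interferon-stimulated genes (blue triangles). *Cdkn1a*, *Eda2r* and *Pmaip1* lie farthest up in both, and the interferon-stimulated genes lie on both sides of 0.

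Among the feedback regulators, 5 of 8 genes had a change over 1. *Mdm2* (ENSMUSG00000020184, chromosome 10, 117688875 to 117710758 of GRCm38), which encodes the ligase that marks p53 for degradation, stood at 63.8, 74.0, 260.3, 462.1 and 581.9 CPM over the 5 times. *Mdm2* was nearly level over the first hour and highest in the last library, 9.12-fold over 0 h. The change over 6 h was 3.58 ± 0.47 (SE), the lowest p of the lists without passing the threshold (adjusted p = 0.13, edgeR). It passed without the filter (adjusted p = 0.00298, edgeR) and with the first generation added as a replicate block (adjusted p = 0.0216, edgeR). *Mdm2* in the first generation stood at 55.8, 50.6 and 225.4 CPM at 0, 1 and 4 h, which again put the whole difference after 1 h. The cyclin G1 gene *Ccng1*, with 79.4, 57.1, 185, 310 and 243 CPM, and *Trp53inp1*, which promotes p53 phosphorylation, with 85.0, 92.3, 241, 229 and 208 CPM, were both highest before 6 h. *Mdm4*, an inhibitor of p53 that is related to *Mdm2*, went from 362 CPM at 0 h to 249 CPM at 6 h, with a change of -0.57 ± 0.20 that was not called.

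*Cdkn1a*, which encodes the cell cycle inhibitor p21, stood at 4.24, 11.3, 55.9, 91.5 and 62.3 CPM from 0 to 6 h. It was highest at 4 h and lower at 6 h, and the 3 late libraries lay above both early ones. Its change over 6 h was 4.18 ± 1.13 (adjusted p = 0.397, edgeR), and its level at 4 h was 21.6-fold that at 0 h. First-generation *Cdkn1a* stood at 3.57, 6.03 and 44.0 CPM, a 12.3-fold difference between 4 and 0 h. Of the 13 arrest genes 8 had a change over 1. *Sfn*, which encodes 14-3-3σ, stood at 1.01, 1.60, 5.76, 7.21 and 9.09 CPM and stepped up at each time. *Gtse1*, which moves p53 out of the nucleus, stood at 9.09, 12.5, 28.3, 41.3 and 36.2 CPM. *Ccng2*, with 62.1 CPM at 0 h and 26.1 to 38.6 CPM later, was lowest of the list at -1.05 ± 0.35. The *Gadd45* genes and *Tob1* gave changes between -0.75 for *Gadd45a* and 0.58 for *Gadd45b* (-0.10 with the exchange of 1 and 4 h libraries between generations), none of them called. Without the 0 h library the change, still given over 6 h, was 2.64 for *Cdkn1a*, -0.51 for *Ccng2*, -0.24 for *Gadd45a* and 1.49 for *Gadd45b*, and without the 6 h library it was 6.87 for *Cdkn1a*.

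The p53 core pair, CATG, any 6 bases and CATG on either strand, was sought in the promoters of the p53 lists, that is from 250 bases before to 50 bases after each start in the RefSeq table of GRCm38.p6. It occurred in 1 of the 62 genes with an entry (1.61%) and in 225 of all 27025 genes (0.833%). That gene was *Cdkn1a*, and its promoter is shown as the only window of the lists with the pair, at chr17:29090729-29091028 on the plus strand, with the pair in capitals.
*Cdkn1a*: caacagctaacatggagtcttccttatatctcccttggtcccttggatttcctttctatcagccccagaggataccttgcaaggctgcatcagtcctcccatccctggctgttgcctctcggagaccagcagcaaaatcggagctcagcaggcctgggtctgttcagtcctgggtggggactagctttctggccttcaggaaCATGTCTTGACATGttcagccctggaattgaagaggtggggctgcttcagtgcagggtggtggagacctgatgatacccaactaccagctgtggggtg
The pair starts 48 bases before the annotated start. For the other 61 genes these letters are not in the window, which says nothing about sites elsewhere.

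Of the 19 apoptosis genes, 14 had an upward slope, 6 a change over 1, against 11.4% of all genes, and 7 an upward unadjusted p under 0.05, against 4.42%. None had a downward one. *Pmaip1*, which encodes the BH3-only protein NOXA, stood at 2.42, 1.71, 15.8, 44.9 and 20.6 CPM in time order. It was highest at 4 h, and the level at 6 h was below that of 4 h and above that of 2.5 h. The change over 6 h was 4.64 ± 1.34 (adjusted p = 0.418, edgeR), the highest of the list. *Pmaip1* in the first generation stood at 0.855, 3.59 and 11.3 CPM. *Bax*, the pore-forming effector of the mitochondrial pathway, stood at 29.2, 54.4, 75.3, 118 and 112 CPM, with a change of 1.90 ± 0.39 (adjusted p = 0.383, edgeR). *Pidd1*, which encodes the scaffold of the PIDDosome, stood at 4.85, 5.42 and 9.85 CPM up to 2.5 h and at 31.9 and 21.1 CPM at 4 and 6 h. *Bbc3*, which encodes the BH3-only protein PUMA, stood at 0.808, 1.31, 3.28, 2.13 and 2.26 CPM and was highest at 2.5 h. The caspase genes *Casp8* and *Casp9* gave changes of -0.16 and 0.37, neither of them called. *Hrk*, another BH3-only gene, had the lowest change of the list, with 2.15 CPM at 0 h and 0.401 to 0.816 CPM later. Without the 6 h library the change was 7.1 for *Pmaip1*, -0.31 for *Casp8* and 0.76 for *Casp9*. It was -0.025 for *Casp8* without the 0 h library, and for *Casp9* 0.62 without that library and 0.14 without the 1 h library.

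Death receptor genes held the largest change of the 5 lists in the main fit, that of *Eda2r*. Without the 0 h library the change of *Pmaip1* in the apoptosis list was larger (4.14 against 3.66 for *Eda2r*). The same held without the 6 h library (7.1 against 6.85). *Eda2r* (ENSMUSG00000034457, chromosome X, 97333840 to 97377216 of GRCm38), a TNF receptor family member that binds ectodysplasin A2, stood at 2.09, 5.28, 24.7, 45.9 and 52.2 CPM over the 5 times. It was higher at each time than at the one before, and its largest step lay between 1 and 2.5 h. Its change over 6 h was 4.72 ± 0.84 (adjusted p = 0.351, edgeR), and the adjusted p was 0.0217 without the filter and 0.0464 with the replicate block over 8 libraries. Without the 0 h library the change was 3.66 (adjusted p = 0.877, edgeR). First-generation *Eda2r* stood at 3.34, 6.37 and 38.1 CPM, which is 11.4-fold from 0 to 4 h. *Fas*, the receptor of FAS ligand, kept to 3.23 to 4.11 CPM up to 2.5 h and stood at 9.79 and 12.0 CPM at 4 and 6 h. *Tnfrsf10b*, the mouse TRAIL receptor, stood at 9.69, 11.1, 26.3, 38.0 and 31.6 CPM. *Ripk1*, the kinase below these receptors, stood at 37.0 CPM at 0 h and at 16.6 to 22.2 CPM later, with a change of -0.84 ± 0.39 that was not called and was -0.21 without the 0 h library.

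In the list of metabolism and stress, 9 of 20 genes had a change over 1. *Sesn2*, a stress-induced inhibitor of mTORC1, stood at 2.96, 5.02, 20.9, 24.4 and 26.7 CPM from 0 to 6 h, while its paralogs *Sesn1* (78.9 to 107 CPM) and *Sesn3* (57.9 to 84.9 CPM) gave changes of -0.05, a sign that turned under several alternatives, and -0.48 (-0.28 without the 6 h library). *Phlda3*, an inhibitor of AKT, stood at 1.68, 4.26, 20.8, 24.7 and 20.1 CPM. *Zmat3*, an RNA-binding protein, stood at 14.9, 20.7, 29.2, 44.2 and 54.4 CPM, with a change of 1.90 ± 0.30 (adjusted p = 0.214, edgeR) that was 1.98 and called over all 8 libraries without a block (adjusted p = 0.0429, edgeR). *Cpt1c*, a carnitine palmitoyltransferase of the endoplasmic reticulum, stood at 8.48, 11.9, 18.0, 18.7 and 33.1 CPM. Both *Zmat3* and *Cpt1c* were higher at each time than at the one before.

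**Figure D3:**
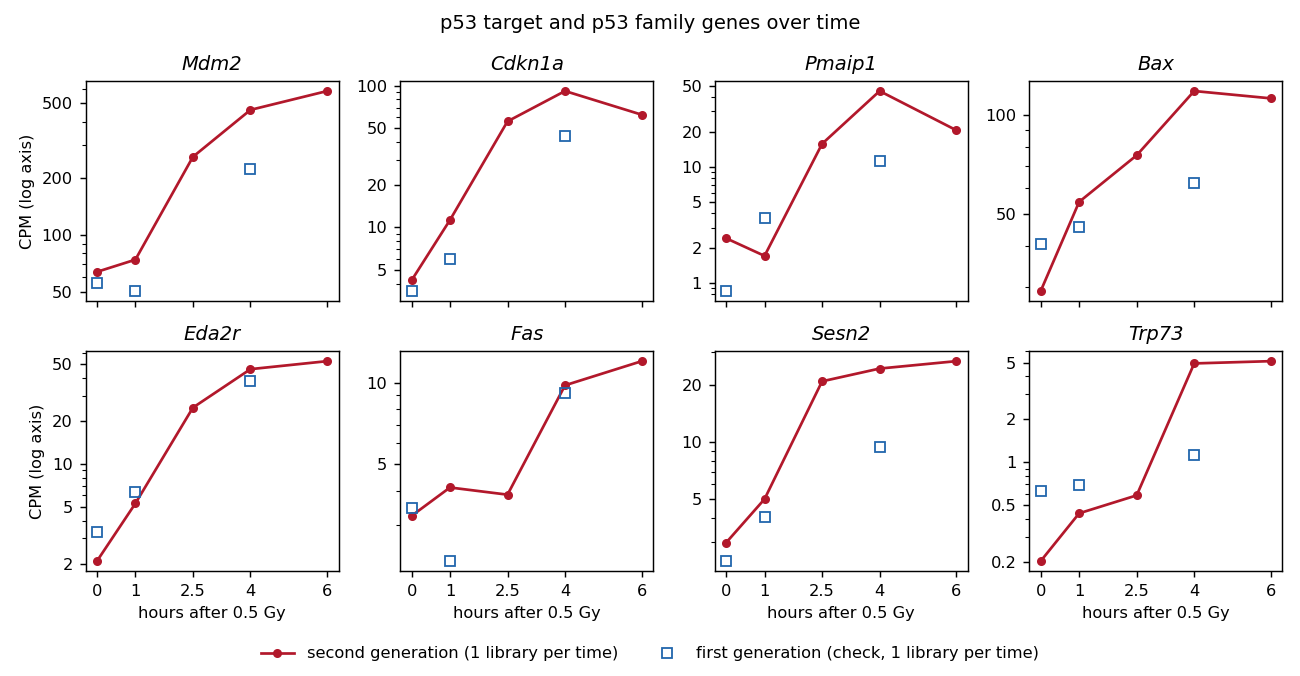
CPM (log axis) against hours after 0.5 Gy for 8 genes of the p53 lists and the p53 family, with the second generation as a red line (1 library per time) and the first as open blue squares. *Cdkn1a*, *Pmaip1* and *Bax* are highest at 4 h, and *Mdm2*, *Eda2r*, *Fas*, *Sesn2* and *Trp73* at 6 h.

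Of the 3 members of the p53 family, *Trp73* had the largest change, at 5.18 ± 1.07 (adjusted p = 0.383, edgeR). *Trp73* stood at 0.202, 0.437 and 0.584 CPM at 0, 1 and 2.5 h and at 4.93 and 5.12 CPM at 4 and 6 h. In the first generation its level at 4 h was 1.12 CPM and at 0 h 0.622 CPM, a smaller difference. *Trp63*, the gene of TAp63α itself, stood at 105, 76.6, 111, 72.7 and 78.9 CPM, and *Trp53* at 76.3, 106, 101, 118 and 129 CPM. Neither passed the threshold, with changes of -0.35 ± 0.30 and 0.63 ± 0.24 (-0.20 and 0.40 without the 0 h library).

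The steps between neighbouring libraries place the p53 lists in time. Over the 74 genes, the median step was 0.20 from 0 to 1 h, 0.38 from 1 to 2.5 h, 0.20 from 2.5 to 4 h and -0.16 from 4 to 6 h on the log2 scale, against at most 0.02 for all genes at any step. From 1 to 2.5 h, 20 of the 74 stepped up by over 1, against 2020 of all 24085 genes, and from 4 to 6 h only *Gls2* did, against 2509. The library with the highest level was that of 4 h for 32 of the 74, against 4744 of all genes, and that of 6 h for 15, against 4705, which is about the same share. In the first generation the median from 0 to 1 h was 0.15 and that from 0 to 4 h 0.49.

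DNA repair genes and damage kinases did not share this course. Of 35 repair genes, 17 had an upward and 18 a downward slope, with a median of -0.02, and the same 2 genes alone had a change over 1, against 11.4% of all genes, and an upward unadjusted p under 0.05, against 4.42%. *Polk*, a translesion polymerase, stood at 28.1, 22.8, 43.1, 61.7 and 62.6 CPM, and *Ercc5*, the endonuclease XPG, at 27.9, 26.3, 30.6, 54.0 and 61.7 CPM. Their changes were 1.49 ± 0.35 and 1.35 ± 0.30 (adjusted p = 0.383 for both, edgeR). First-generation *Polk* stood at 26.1, 17.0 and 50.2 CPM and *Ercc5* at 21.7, 26.1 and 47.5 CPM, and both were highest at 4 h. The lowest change of the list was that of the translesion polymerase gene *Rev3l*, at -0.72 ± 0.31 (-0.30 without the 0 h and -1.63 without the 6 h library). None of the 9 kinase genes, *Atm*, *Atr*, *Chek1* and *Chek2* among them, had a change over 1 in either direction.

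Interferon-stimulated genes took another course, with their lowest median level at 2.5 h and a step between 4 and 6 h. Over the 45 genes, which all passed the filter, the median step was -0.18 from 0 to 1 h, -0.50 from 1 to 2.5 h, 0.20 from 2.5 to 4 h and 1.13 from 4 to 6 h. From 4 to 6 h, 40 of the 45 stepped up, 25 of them by over 1, against 12140 and 2509 of all 24085 genes. The 6 h library had the highest level for 33 of the 45, against 4705 of all genes, and none of the 45 was highest at 4 h. The lowest level lay at 2.5 h for 18, against 4366 of all genes. It lay at 4 h for 10, against 4634, which is about the same share.

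A fit that set the 6 h library against the other 4 called 1 of 27075 genes (0.00369%), which was no interferon-stimulated gene, while 3.46% had an unadjusted p under 0.05. An unadjusted p under 0.05 upward in this fit was reached by 15 of the 45 interferon-stimulated genes, against 1.63% of all genes, and downward by 1, against 1.82%. Among the 24085 genes of the straight-line fit, which hold all 45, 302 reached it upward and 453 downward. The lowest adjusted p of the 45 was 0.272 (edgeR). The Wald test of DESeq2 called 6 of the 45, *Ifi44*, *Ifit3*, *Irf9*, *Mx2*, *Rtp4* and *Usp18*, all upward, against 17 of all genes upward (0.0628%). This contrast rests on 1 library. No first-generation library was taken at 6 h, so there is no check at that time.

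*Usp18* (ENSMUSG00000030107, chromosome 6, 121245906 to 121270917 of GRCm38), the protease that removes ISG15 from proteins, stood at 6.13, 8.22, 4.45, 4.82 and 45.6 CPM in time order. The 6 h level stood clear of the other 4. The 6 h library differed from the other 4 by 2.95 ± 0.38 (adjusted p = 0.272, edgeR). *Rtp4*, an interferon-induced chaperone of receptors, stood at 15.9, 14.2, 9.41, 16.8 and 71.4 CPM, a difference of 2.34 ± 0.33. *Mx2*, a GTPase that acts against viruses, stood at 7.74, 5.64, 10.4, 7.99 and 41.5 CPM. *Ifit3*, which binds viral RNA together with *Ifit1*, stood at 2.15, 0.728, 0.401, 0.294 and 19.1 CPM, and *Ifit1* at 4.64, 0.437, 2.01, 2.72 and 25.5 CPM. *Ifit3* shares 62.5% of its 30-base words with *Ifit3b*, so the levels of these copies are uncertain. *Ifit3b* had the largest straight-line change of the list, at 3.59 ± 0.90, and 4.12 CPM at 6 h, and its change was 1.40 without the 6 h library. *Isg15*, the ubiquitin-like modifier, stood at 1.35, 3.35, 1.5, 1.32 and 10.7 CPM.

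The regulators of this program were higher at 6 h as well. *Irf9*, which gives this program its DNA-binding factor, lay between 23.3 and 30.4 CPM up to 4 h and at 71.8 CPM at 6 h. *Irf7*, which drives interferon genes themselves, stood at 6.33, 4.69, 1.75, 3.64 and 17.1 CPM. *Stat2* (15.4 to 32.9 CPM) and *Irf1* (29.1 to 43.2 CPM) were also highest at 6 h, but lay close to their next highest library, with 26.6 CPM at 4 h for *Stat2* and 42.3 CPM at 1 h for *Irf1*. Not all members took this course, since 7 of the 45 were highest at 0 h and 3 were lowest at 6 h. *Gbp2*, an interferon-induced GTPase, had the lowest change over time of the list, with 10.6 CPM at 0 h and 2.71 CPM at 6 h. Of the 45 genes, 13 met the definition of a level specific to 6 h, which is a 6 h value over 1 on the log2 scale above all others, against 1.16% of all genes. Without the 0 h library, 16 of the 45 and 512 of all genes met it.

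A bend in the course was tested as curvature over time, given as the deviation at 3 h from a straight line between the ends. A high level at 6 h alone gives a downward curvature too, so this value does not tell a dip before 6 h apart from a step at 6 h. None of 24085 genes was called (0%) by edgeR, where the lowest adjusted p was 0.0732 and 2108 genes had an unadjusted p under 0.05 (8.75%), while DESeq2 called 147. Of the 45 interferon-stimulated genes, 16 had a downward curvature with an unadjusted p under 0.05, against 3.3% of all genes, and none had an upward one. Of these 16, 8 were among the 13 genes with a level specific to 6 h. DESeq2 called 10 of the 45, all downward, against 56 of all genes downward (0.233%). For the 74 genes of the p53 lists the curvature leaned the other way, with 15 upward, against 5.45% of all genes, and none downward. In the first generation, which ends at 4 h, 27 of the 45 were higher at 4 h than at 0 h, against 11833 of all 24085 genes, with a median of 0.20. In the second generation 15 of the 45 were, against 12095 of all genes. The median of 4 h minus 0 h was -0.23 in the second generation, the opposite sign. The 11 macrophage markers summed to 96.7, 107.9, 67.2, 77.0 and 89.8 CPM in time order, and 8 of them stepped up from 4 to 6 h, 4 by over 1. The 7 endothelial markers summed to 155, 189.2, 97.9, 138.6 and 169.4 CPM, 5 of them were lowest at 2.5 h, and all 7 stepped up from 4 to 6 h, none by over 1. No marker of either list was at 0 in any library. Granulosa cell markers summed to 2722 CPM at 2.5 h, their lowest, and 3103 CPM at 6 h, while stroma and theca markers stood at 3973 CPM at 2.5 h and were lowest at 4 h with 3005 CPM. The macrophage and endothelial sums were both highest at 1 h. The part of these cell types in the course of the interferon-stimulated genes was not tested.

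**Figure D4:**
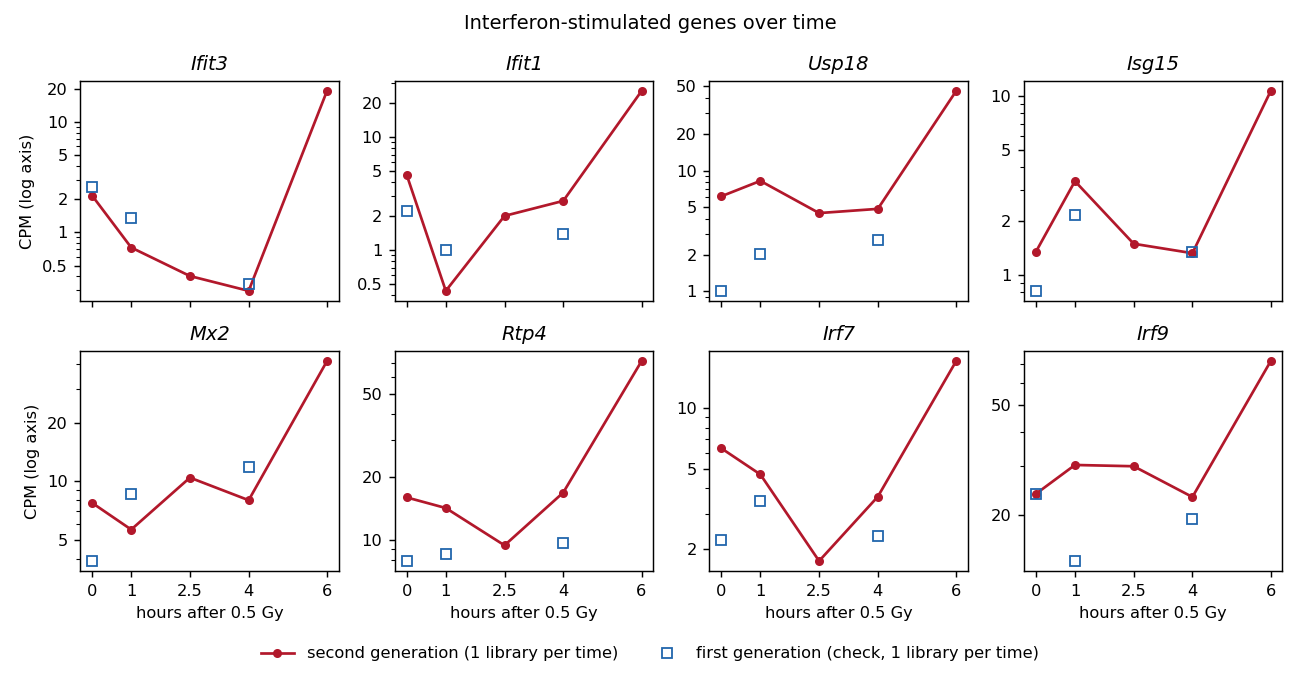
CPM (log axis) against hours after 0.5 Gy for 8 interferon-stimulated genes, with the second generation as a red line (1 library per time) and the first as open blue squares. All 8 genes are highest at 6 h, where *Usp18* reaches 45.6 CPM and *Rtp4* 71.4 CPM.

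The ISRE, TTTC, any 2 bases and TTTC on either strand, was sought in the same promoter windows. It occurred in 17 of the 33 listed genes with an entry (51.5%) and in 1079 of all 27025 genes (3.99%). Among the genes with a level specific to 6 h, 4 of 9 held it (44.4%), and among the other members 13 of 24 (54.2%), so its presence did not separate them. The promoters of *Isg15* (chr4:156200769-156201068, minus strand), *Ifit1* (chr19:34640639-34640938, plus strand) and *Ifit3* (chr19:34583279-34583578, plus strand) are shown as windows with the motif from genes with a level specific to 6 h, and that of *Oas1a* (chr5:120907476-120907775, minus strand) as a window with the motif from a gene without one. Capitals mark the matches, which overlap in *Isg15* and *Oas1a*.
*Isg15*: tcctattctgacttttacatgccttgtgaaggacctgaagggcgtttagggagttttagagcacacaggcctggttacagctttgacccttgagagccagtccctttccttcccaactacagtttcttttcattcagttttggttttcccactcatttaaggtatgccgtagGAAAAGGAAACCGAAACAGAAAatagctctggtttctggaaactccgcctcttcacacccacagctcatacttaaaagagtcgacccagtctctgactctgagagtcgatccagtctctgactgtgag
*Ifit1*: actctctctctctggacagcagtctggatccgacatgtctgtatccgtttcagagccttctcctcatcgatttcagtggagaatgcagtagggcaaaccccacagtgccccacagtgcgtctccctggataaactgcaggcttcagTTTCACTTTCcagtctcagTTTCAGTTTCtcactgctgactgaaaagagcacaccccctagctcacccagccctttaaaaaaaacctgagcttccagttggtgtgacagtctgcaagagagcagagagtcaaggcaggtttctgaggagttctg
*Ifit3*: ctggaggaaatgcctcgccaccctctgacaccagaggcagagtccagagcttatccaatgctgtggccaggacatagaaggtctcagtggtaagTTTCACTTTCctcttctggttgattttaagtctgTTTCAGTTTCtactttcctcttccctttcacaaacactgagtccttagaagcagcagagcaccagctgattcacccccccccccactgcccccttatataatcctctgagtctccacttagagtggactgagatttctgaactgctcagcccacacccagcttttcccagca
*Oas1a*: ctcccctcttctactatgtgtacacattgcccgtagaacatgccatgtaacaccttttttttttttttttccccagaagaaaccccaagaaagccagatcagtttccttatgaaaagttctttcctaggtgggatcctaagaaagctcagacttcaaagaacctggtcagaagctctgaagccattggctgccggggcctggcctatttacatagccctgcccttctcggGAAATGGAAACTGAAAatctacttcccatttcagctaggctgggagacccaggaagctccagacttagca
*Oas1a* stood at 2.09, 1.42, 0.073, 1.07 and 2.93 CPM from 0 to 6 h. It was highest at 6 h but close to its 0 h level, and 69.5% of its 30-base words occur in another gene.

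**Figure D5:**
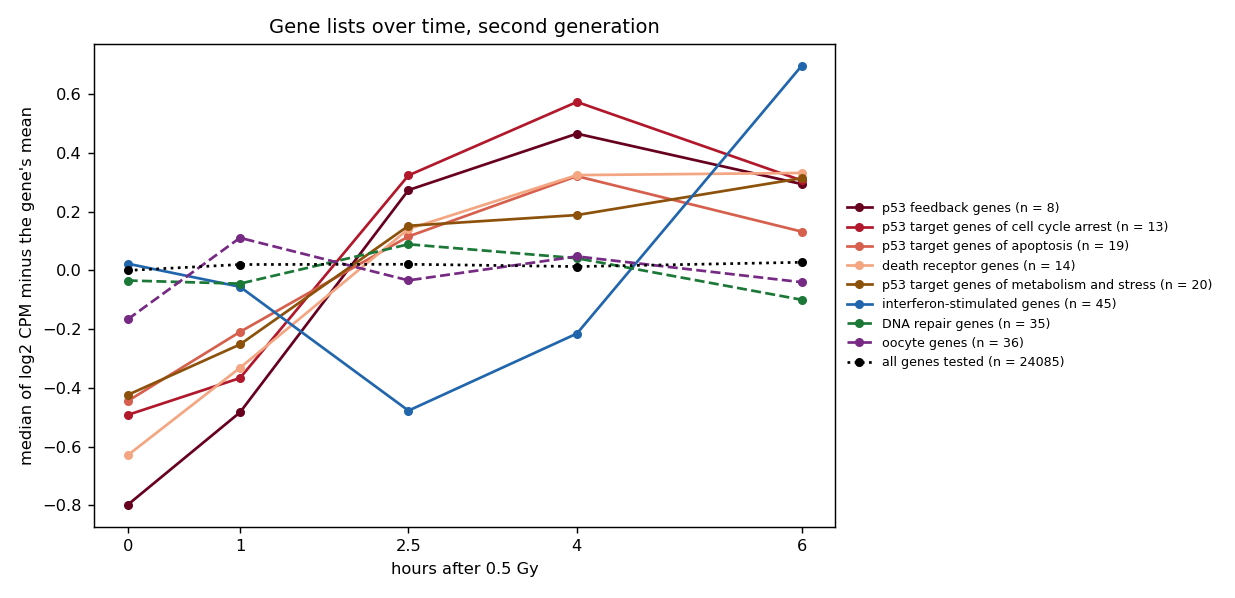
Median over the genes of a list of log2 CPM minus each gene's mean over the 5 libraries (y axis) against hours after 0.5 Gy (x axis), with 1 line per list. The p53 lists lie lowest at 0 h and above 0 from 2.5 h on, the interferon-stimulated genes lie lowest at 2.5 h and highest at 6 h, and the DNA repair and oocyte genes stay closer to the line of all genes.

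Each of the 24085 genes was also placed by the shape of its profile, as a description without a test, with a difference of 1 on the log2 scale as the limit. An upward monotone profile, with no step down and a 6 h level over 1 above 0 h, was found for 285 genes (1.18%), and a downward one for 159 (0.66%). Of the 101 upward ones that encode proteins and reached a mean of 5 CPM, 72 were higher at 4 h than at 0 h in the first generation (71.3%), 24 of them by over 1 (23.8%). For all such protein-coding genes these shares were 51.7% and 3.78%. Of the 66 downward ones, 44 were lower (66.7%, against 48.3%), but only 1 by over 1 (1.52%, against 3.14%). In 49 of the 101 upward and 32 of the 66 downward genes the largest step was that from 0 to 1 h, which leans on the 0 h library. From 1 h on, 603 genes met the upward and 340 the downward definition.

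The widest upward monotone profiles by the rule for named genes were those of *Eda2r*, *Gm21887*, *Cbr2*, *Lctl* and *Cdc42bpg*. *Cdc42bpg*, a kinase that acts below CDC42, stood at 1.08, 5.64, 7.92, 12.6 and 14.6 CPM in time order and at 2.52, 4.63 and 9.63 CPM at 0, 1 and 4 h of the first generation. *Lctl*, a member of the lactase family, stood at 0.471, 1.49, 4.85, 9.57 and 9.98 CPM, with 1.40, 0.927 and 5.96 CPM in the first generation. *Gm21887* had 12.5 CPM at 6 h and at most 0.116 CPM in any first-generation library, and 62.1% of its 30-base words occur in *Gm47283*. The widest downward ones were those of *Plppr4*, *Zfp882*, *C1qtnf3*, *Scn2b* and *Bmp3*. *Bmp3*, a ligand of the TGF-β family, stood at 134, 61.3, 56.6, 52.4 and 33.2 CPM, with 59.6, 26.3 and 43.9 CPM in the first generation. *Plppr4* stood at 31.8, 24.1, 13.0, 12.3 and 5.30 CPM, but its first-generation levels of 17.4, 11.2 and 35.8 CPM were highest at 4 h. The oocyte transcription factor gene *Lhx8* was the lowest of the oocyte list, with 91.6, 70.7, 68.2, 51.4 and 41.2 CPM and a change of -1.10 ± 0.24 (adjusted p = 0.383, edgeR), and 56.3, 55.4 and 38.6 CPM in the first generation.

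A transient profile, with a middle time point over 1 beyond both ends, was the most frequent shape, upward in 1390 genes (5.77%) and downward in 2652 (11%). Of these, 180 of the 1390 and 336 of the 2652 reached a mean of 5 CPM. For the protein-coding genes above that level whose extreme lay at 1 h, the first generation gave the same direction at 1 h in 20 of 36 upward genes (55.6%) and 36 of 63 downward genes (57.1%). For all genes above that level the shares were 53.5% and 46.5%. *Car3*, a carbonic anhydrase, stood at 42.0 CPM at 1 h and at 0.511 to 2.36 CPM otherwise, while in the first generation it was highest at 4 h with 105 CPM. The first generation has no 2.5 h library to set beside the next 3 genes. *Col6a5*, a collagen VI chain, stood at 93.8 CPM at 2.5 h and at 5.06 to 8.82 CPM otherwise. *Serpina3c*, a protease inhibitor, was highest at 2.5 h with 16.0 CPM, and *Gm14698*, with 18.0 CPM at the same time, shares 96.7% of its words with *Styx*. *Oog4*, an oocyte gene, had 2 separate high libraries, 18.5 CPM at 1 h and 31.2 CPM at 4 h, while in the first generation it stood at 38.6, 3.44 and 4.57 CPM and was highest at 0 h. Of the 5 widest downward ones, *Zc3h11a*, *Gm49378*, *Pakap* and *Dynlt1a* share 79% to 100% of their 30-base words with another gene, and *Slc14a1*, a urea transporter, ranged from 0.328 CPM at 2.5 h to 49.0 CPM at 1 h.

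A late-only profile, with both 4 and 6 h over 1 above all earlier libraries, was found for 161 genes (0.668%), and its downward counterpart for 88 (0.365%). The fit of 4 and 6 h against 0, 1 and 2.5 h called 2 of 24085 genes (0.0083%), both upward, while 5.98% had an unadjusted p under 0.05. Of the 74 genes of the p53 lists, 16 reached that p upward, against 2.95% of all genes, and 2 downward, against 3.03%. *Gm47272*, annotated as an antisense transcript on chromosome 18, stood at 1.48, 3.20 and 3.14 CPM up to 2.5 h and at 36.0 and 36.4 CPM at 4 and 6 h. The 2 late levels lay apart from the 3 early ones, by 3.77 ± 0.36 (adjusted p = 0.047, edgeR). In the first generation *Gm47272* stood at 6.57, 11.3 and 17.7 CPM at 0, 1 and 4 h. Among these times 4 h was the highest in both generations, by 2.69-fold over 0 h in the first. The cDNA kit is not stated to keep the strand, so reads of *Gm47272* cannot be told apart from those of a gene on the other strand. The call of *Gm47272* was lost without the 1 h, the 4 h or the 6 h library (adjusted p = 0.209, 0.404 and 0.425, edgeR). *Tpm3-rs7* stood at 1.35 to 2.04 CPM up to 2.5 h and at 134 and 105 CPM later (adjusted p = 0.000128, edgeR), but at 33.0, 194 and 98.0 CPM in the first generation, highest at 1 h. It shares 79.1% of its 30-base words with *Tpm3*, so its level is uncertain. With the libraries of 1 and 4 h exchanged between generations, neither *Gm47272* (2.31) nor *Tpm3-rs7* (0.60) was called (adjusted p = 0.9996 for both, edgeR), and neither was over all 8 libraries.

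Of the 16 late-only upward genes that encode proteins and reached a mean of 5 CPM, 13 were higher at 4 h than at 0 h in the first generation (81.2%, against 51.7% of all such genes), 7 of them by over 1 (43.8%, against 3.78%). Of the 7 downward ones, 4 were lower (57.1%, against 48.3%), 2 of them by over 1 (28.6%, against 3.14%). By the rule for named genes the widest, beside *Tpm3-rs7*, were *Dynlt1a*, *Gm7324*, *Aldh4a1* and *Slc25a25*. *Aldh4a1*, which oxidizes the proline breakdown product in mitochondria, stood at 7.46 to 11.1 CPM up to 2.5 h and at 32.4 and 35.2 CPM at 4 and 6 h, but at 14.0, 9.66 and 12.9 CPM in the first generation. *Slc25a25*, a carrier of ATP-Mg across the inner mitochondrial membrane, stood at 2.73 to 3.36 CPM up to 2.5 h and at 8.54 and 12.8 CPM later. Its first-generation levels of 2.91, 5.21 and 8.46 CPM were highest at 4 h, the last time of that generation. *Dynlt1a* and *Gm7324* each share 79% of their words with other genes. Among the downward ones, *Tdrd9*, an RNA helicase of the piRNA pathway, stood at 94.5 to 111 CPM up to 2.5 h and at 25.8 and 31.9 CPM later, while the first generation gave 37.3, 52.8 and 66.1 CPM. *Chil3*, a chitinase-like protein of myeloid cells, stood at 34.3 CPM at 0 h and at most 1.53 CPM later, and so followed the granulocyte markers. *Adnp* stood at 92.2, 20.5, 5.51, 0.368 and 1.89 CPM, but at 95.7 to 109 CPM in the first generation, and 81.2% of its words occur in *Gm20716*.

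The 6 h library alone lay over 1 above all others in 280 genes (1.16%) and below all others in 300 (1.25%). Of the 5 widest upward protein-coding genes at a mean of 5 CPM, *Usp18*, *Ifit1*, *Rtp4* and *Irf7* belong to the interferon list, and *Irgm1*, an interferon-induced GTPase that was not on it, stood at 21.9 to 30.2 CPM up to 4 h and at 84.6 CPM at 6 h. The gene called in the 6 h fit was the pseudogene *Gm3226*, with 60.4 CPM at 6 h and at most 1.93 CPM before (adjusted p = 0.0482, edgeR). *Gm3226* of the first generation had 40.1 CPM at 1 h, and 88.9% of its words occur in other genes, most in *Tuba1b*. The widest downward ones were *Gm32687*, *Gjb2*, *Cyp17a1*, *Ccdc184* and *Gm14698*. *Cyp17a1*, a steroid-producing enzyme of theca cells, stood at 4.15 to 5.12 CPM up to 2.5 h, 19.1 CPM at 4 h and 0.556 CPM at 6 h, and at 16.7 CPM at 0 h of the first generation. *Gjb2*, a gap junction protein, stood at 4.30 to 13.7 CPM up to 4 h and at 0.556 CPM at 6 h.

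Among stress genes outside the p53 lists, the 25 genes of the integrated stress response and endoplasmic reticulum stress had a median change of 0.01. Of these, 5 had a downward slope with an unadjusted p under 0.05, against 5.04% of all genes, and 2 an upward one, against 4.42%. A change below -1 was reached by 3, against 9.79% of all genes, which is about the same share. The 15 heat shock genes had a median of -0.10. *Shmt2*, a mitochondrial enzyme of one-carbon metabolism, stood at 27.9, 44.5, 70.2, 81.1 and 68.1 CPM, with a change of 1.28 ± 0.43 that was not called. *Hsp90aa1*, a cytosolic chaperone, stood at 1412 CPM at 0 h and 852.9 CPM at 6 h, with a change of -0.62 ± 0.19. The change of *Shmt2* was 0.69 without the 0 h and 2.28 without the 6 h library. Of 27 immediate early genes that passed the filter, 5 had a change over 1, against 11.4% of all genes, and none of them passed the test. *Egr2*, a zinc finger factor, had the largest of these changes at low levels (0.327 to 3.45 CPM, 2.90 ± 0.84, and 0.75 over all 8 libraries without a block), while its first-generation levels of 3.34, 2.09 and 1.87 CPM were lowest at 4 h. The lowest change was that of *Dusp1*, a phosphatase of MAP kinases, with 25.4 CPM at 0 h and 9.20 CPM at 6 h. *Chac1*, a glutathione-degrading enzyme of the integrated stress response, stood at 3.90, 1.49, 1.28, 0.589 and 0.482 CPM, and in the first generation at 2.37, 0.927 and 0.824 CPM.

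The slope over time was compared with that of the third-generation libraries of 0.2 Gy at the same 5 times. Dose and generation changed together in this comparison and cannot be told apart. No gene of 28130 was called (0%) by edgeR, where 3030 had an unadjusted p under 0.05 (10.8%) and the lowest adjusted p was 0.278, while DESeq2 called 438. Of the 74 genes of the p53 lists, 8 had an unadjusted p under 0.05 with the higher slope at 0.5 Gy, against 5.12% of all genes, and 2 with the higher slope at 0.2 Gy, against 5.65%. Among the 24085 genes of the straight-line fit, which hold all 74, these counts were 1126 and 1510. *Eda2r* stood at 8.49, 4.30, 8.09, 25.6 and 20.6 CPM at 0.2 Gy, and its change over 6 h was larger at 0.5 Gy by 2.73 ± 1.25 (adjusted p = 0.464, edgeR). *Mdm2* stood at 54.6, 62.7, 106.3, 263.6 and 241.8 CPM at 0.2 Gy, with a difference of 1.02 ± 0.72 (adjusted p = 0.643, edgeR). *Usp18* was highest at 6 h at 0.2 Gy too, with 11.6 CPM against 2.62 to 4.68 CPM before. *Rtp4* stood at 32.4 CPM at 6 h and at 8.05 to 18.9 CPM before. *Mx2* and *Ifi44* did not have their highest level at 6 h at 0.2 Gy, with 6.24 and 2.32 CPM.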

How the data were processed

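RNA of oocytes was measured in 13 libraries, of which the 5 of the second generation were analysed as a series over time. Per the labels and the methods of the study, cDNA was made with the SMARTer kit and sequenced as 30-base reads on an Illumina HiSeq, and the authors ran salmon on Ensembl mouse transcripts (GRCm38). The labels disagree on single or paired ends. The authors deposited estimated counts, which need not be whole, and TPM per transcript. TPM values were not used, and neither were the authors' tables of fold changes and p-values from DESeq2 1.24.0. No column of values per sample was left unmapped.

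The deposited estimated counts were summed per gene over 130740 transcripts and rounded, which gave 49585 genes. Transcripts without a gene (402, at most 0.495% of the reads of a library) were left out. Genes were filtered on low counts with filterByExpr, normalized with TMM and tested with edgeR 4.0.16 (glmQLFit and glmQLFTest, R 4.3.3) and Benjamini-Hochberg adjustment over all genes tested. Calls needed a change over 1 on the log2 scale and an adjusted p under 0.05. With 5 libraries, 3 residual degrees of freedom remained (2 for curvature and 6 for the slopes of both doses). P-values therefore measure the scatter of single libraries around the curve. Log2 CPM used a prior count of 2. DESeq2 1.42.0 and limma 3.58.1, other normalization and filters, and fits without each library were the alternatives. The scripts were tested on simulated data.

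Named were each list's largest rise and fall, the 5 widest protein-coding genes with a mean of at least 5 CPM in each profile shape, the called genes and the p53 family. Others were chosen after their values were seen. Members and lists were chosen with earlier results of these data known. The share of 30-base words was computed from the reference transcripts, and promoters came from RefSeq (GRCm38.p6). Floors cover counting error only, and SEs are those of the fits. The library totals that the study lists put those of 1 and 4 h the other way round between the generations, whereas the deposited labels were kept here and the exchange was an alternative. Some members of the lists are counted but not reported by name here.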

Additional observations from a re-analysis of the deposited data

How the results depend on the processing

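The number of genes called depended on the tool. For the straight line (4 genes), 34 were called with no filter on low counts, 339 by DESeq2, 0 by limma, 0 with the libraries of 1 and 4 h exchanged between generations, 2 with time as the order of the time points and 0 to 2 without 1 library. For curvature (0 genes), the counts were 16 with no filter, 147 by DESeq2 and 0 to 2 without 1 library. For 4 and 6 h against the rest (2 genes), they were 4 with no filter, 95 by DESeq2, 1 by limma, 1 with the exchange, a downward one in place of the 2 upward, 1 to 16 without 1 library (16 without 2.5 h) and 11 when 2.5 h was counted as late, which was chosen after seeing the data. For 6 h against the rest (1 gene), an upward one, they were 11 with no filter, 59 by DESeq2 (17 upward and 42 downward), 1 by limma, which was downward, 0 with the exchange and 0 to 2 without 1 library (2 without 2.5 h, both downward). This fit has no value without the 6 h library. For the slopes of both doses (0 genes), they were 438 by DESeq2 and 0 to 4 without 1 library (4 without 2.5 h and 1 without 4 h of 0.2 Gy). The cause of these differences was not tested.

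All 8 libraries of 0.5 Gy were also fitted with the generation as a replicate block. It called 5 genes for the straight line, 0 for curvature, 0 for the late step and 0 for the 6 h step. Without the block the counts were 7, 1, 0 and 0. No label names a shared litter or day for a generation. The correlations of the differences between generations across time points were 0.154, 0.0849 and 0.122. With single libraries these cannot tell whether a generation shared a batch. Log2 CPM correlated at 0.951 to 0.959 among first-generation libraries and at 0.932 to 0.959 among second-generation ones. Between generations at the same time it correlated at 0.932 to 0.951. An effect of the generation was not tested. With the block *Mdm2* was called upward (3.51 ± 0.39, adjusted p = 0.0216, edgeR), as was *Eda2r* (4.95, adjusted p = 0.0464, edgeR).

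The number of p53 list members with a change over 1 (33) was 26 without the 0 h library, 39 without the 6 h library and 26 to 39 over all fits without 1 library. Every change from a straight line is given over 6 h, also where the 0 or 6 h library was left out. With a limit of 1.5 on the log2 scale in place of 1, the profile shapes held 77 downward monotone, 516 upward and 1234 downward transient, 62 upward and 36 downward late-only, and 66 upward and 122 downward 6 h-only genes, and 8 interferon-stimulated genes were specific to 6 h. The exchange left 104 upward late-only genes. Without the 0 h library there were 603 upward and 340 downward monotone, 338 and 192 late-only, and 512 and 460 6 h-only genes, and 962 upward and 2060 downward transient ones. Among the genes run through the alternatives, the direction turned for *Sesn1* (-0.05), with 0.23 under the exchange, -0.24 to 0.30 without 1 library (0.30 without 6 h), 0.32 with the replicate block, 0.39 over 8 libraries without it and 0.050 with time as log2 hours, and for *Gadd45b* (0.58), with -0.10 under the exchange. The 0 h library had the fewest reads, which limits low genes most.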
